A study of Mus musculus with 12 samples.

Results

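The genes described here build, sulfate and edit glycosaminoglycans, the long sulfated sugar chains carried by proteoglycans. The 33 genes were chosen by name, as enzymes and transporters of chondroitin and heparan sulfate assembly. All 33 symbols matched 1 Ensembl ID each among the 57010 IDs counted, and all 33 passed the filter on low counts that left 14253 genes for testing. The series holds 12 RNA libraries from primary mouse chondrocytes, the cells that make cartilage matrix, all of wild-type genotype per the labels, in 3 groups of 4. The groups are labelled Control, WT and SIRT5F101L. Cells of the last 2 groups were transfected with a wild-type plasmid, read here as wild-type SIRT5, or with one for its F101L mutant. SIRT5 is a mitochondrial enzyme that takes acyl groups such as malonyl off lysines. What the Control cells received, the age of the animals, the time after transfection and whether libraries came from separate cultures are not given in the sources used here, so p-values measure only the spread between these libraries. Replicate numbers follow accession order and pair no libraries.

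The libraries held 15095357 to 24242139 counts, so that 1 count was worth 0.0413 to 0.0662 CPM, the count scaled to library size. Sirt5 itself had 9 to 16 counts in Control, 1 to 9 in WT and 9 to 19 in SIRT5F101L, so the gene named in the labels was not raised in either plasmid group. The counts therefore do not show that either form of SIRT5 was expressed, and the plasmids' sequence, including its species, is not given in the sources used here. WT and SIRT5F101L below mean the libraries so labelled. The 2414 IDs placed on the X chromosome were listed at 0 in all 12 libraries, so X-linked genes of the pathway, such as Bgn, which encodes the core protein biglycan, are not described. All 12 libraries expressed Col2a1, the main collagen gene of cartilage, at a mean of 6719 CPM in Control, 1665 in WT and 1312 in SIRT5F101L.

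A glycosaminoglycan chain is started on a serine of a core protein by a short linker that begins with xylose. It is then lengthened by alternating sugars, galactosamine and glucuronate in chondroitin sulfate or glucosamine and glucuronate in heparan sulfate, and is sulfated in the Golgi by enzymes that all use the donor PAPS. In cartilage the chondroitin sulfate chains of aggrecan hold water and give the tissue its resistance to compression, while heparan sulfate binds growth factors at the cell surface.

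Most of these genes differed from Control in each plasmid group, some up and some down, and the largest differences were increases. In WT, 15 of the 33 rose and 11 fell (edgeR quasi-likelihood test, Benjamini-Hochberg adjusted p under 0.05). That is 78.8% of the genes, against a background of 56.8% of all 14253 genes tested. The shares by direction were 45.5% higher and 33.3% lower, against 28.7% and 28.1% of all genes. In SIRT5F101L, 16 rose and 11 fell, 81.8% of the genes against a background of 60.7%, with 30% of all genes higher and 30.7% lower. The list of 33 was drawn up with earlier results of these data known, so these shares describe it and do not test it. Ugdh, Xylt1, Sulf1, Chst11 and Chst3 were at least 2-fold higher in both groups. Called genes at least 2-fold higher made up 9.1% of all genes in WT and 9.84% in SIRT5F101L. None of the 33 was called at least 2-fold lower, beside 7.56% and 7.67% of all genes. For 25 of the 33 genes no library of the plasmid group overlapped the Control range, in WT (background 53.5% of all genes) and in SIRT5F101L (background 51.3%). The median log2 fold change of the 33 genes was 0.05 in WT and 0.11 in SIRT5F101L, beside -0.01 and -0.02 for all genes tested.

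The WT and SIRT5F101L groups were compared with the same 4 Control libraries, so their results are not independent. Fam20b was called higher and Chpf2 lower in SIRT5F101L but not in WT, and Ust was called lower in WT but not in SIRT5F101L. None of these 3 was called between the plasmid groups by edgeR's quasi-likelihood test (adjusted p of 0.461, 0.456 and 0.666 for Fam20b, Chpf2 and Ust). The plot of fold changes by role shows all 33 genes in the 3 comparisons.

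**Figure D1:**
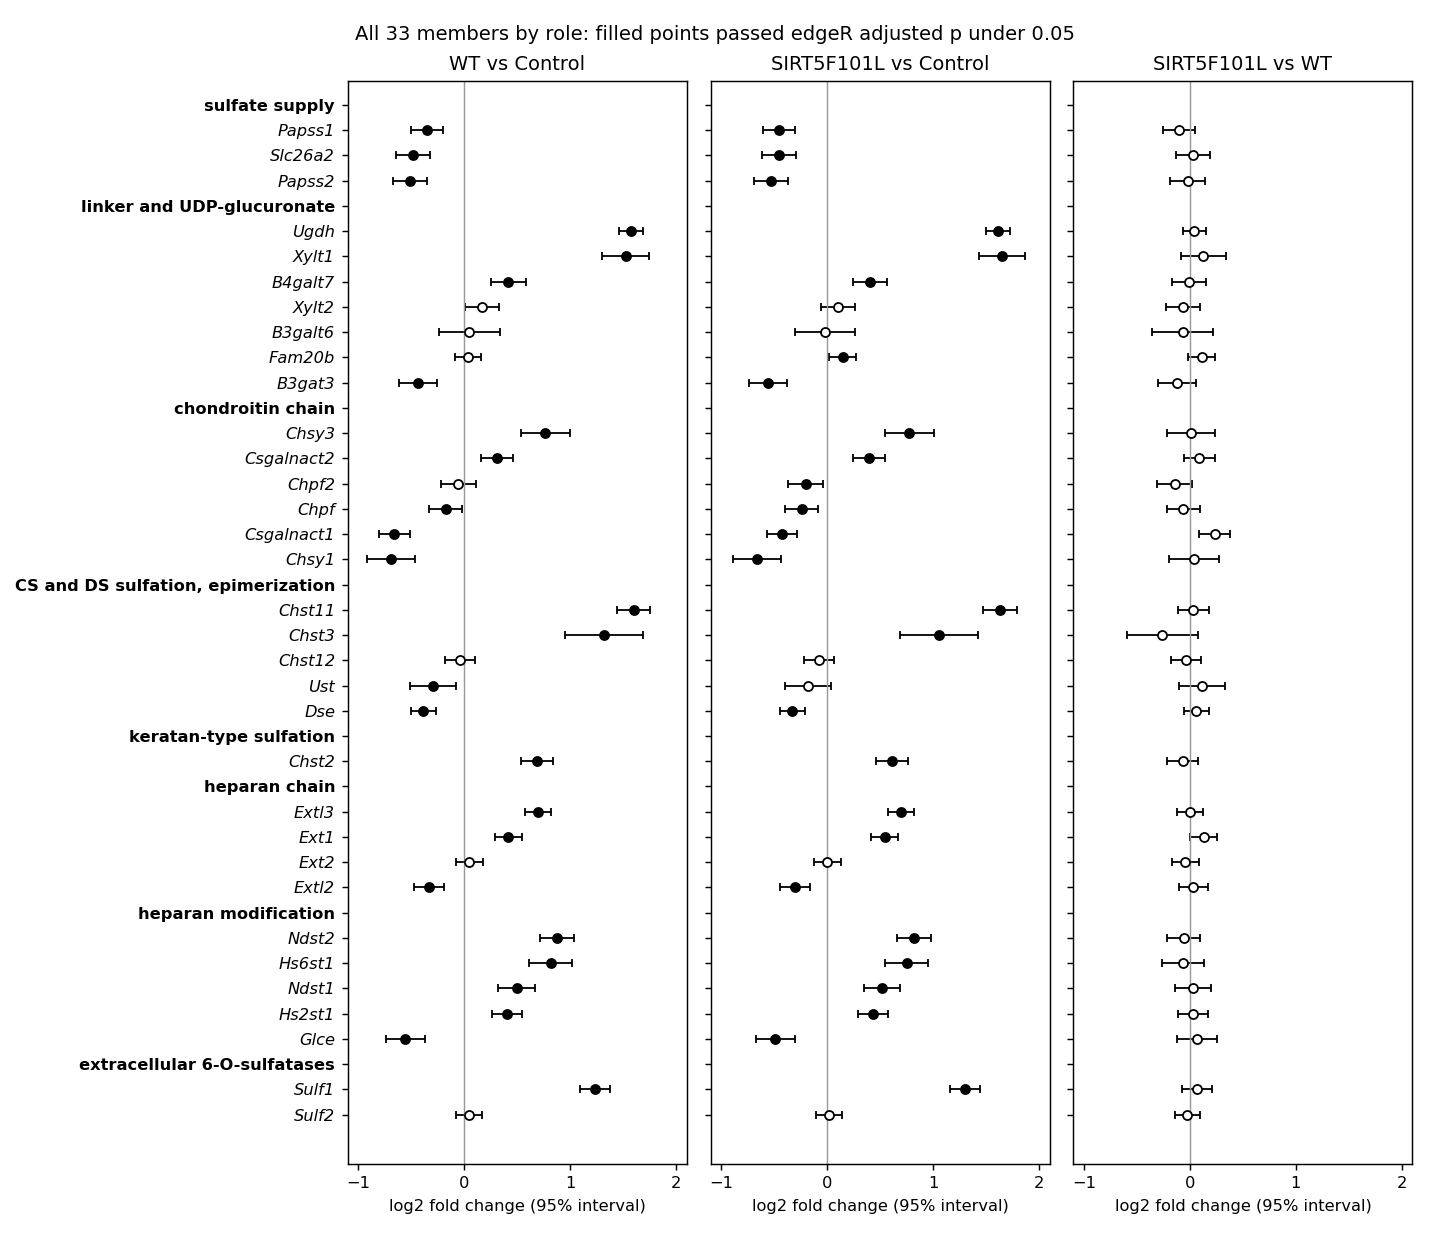
Log2 fold change (horizontal axis, with 95% interval) of the 33 genes, ordered by role, in WT against Control, SIRT5F101L against Control and SIRT5F101L against WT. Filled points passed the adjusted p threshold of 0.05: 26 and 27 genes in the left and middle panels and 0 in the right panel.

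The 3 genes of sulfate supply all fell, as did 28.1% of all genes in WT and 30.7% in SIRT5F101L. Slc26a2, the sulfate transporter of the cell membrane, fell by 0.48 on the log2 scale in WT and by 0.46 in SIRT5F101L. Its Control libraries lay at 86.4 to 114 CPM, above the WT libraries at 71.8 to 79.0 CPM and the SIRT5F101L libraries at 70.6 to 79.2 CPM. Papss2 and Papss1 are the PAPS synthases, which turn sulfate into the donor for the sulfotransferases. Papss2 fell by 0.51 ± 0.08 (SE) in WT and by 0.53 ± 0.08 in SIRT5F101L, from 118 ± 9.22 CPM in Control to 82.9 ± 7.06 and 81.8 ± 7.82 CPM (SD, n = 4). Papss1 fell by 0.35 and by 0.46. The highest edgeR adjusted p of these 3 genes in either comparison was 3.0e-04, and no library of a plasmid group overlapped the Control range, beside 53.5% of all genes without overlap in WT and 51.3% in SIRT5F101L.

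Enzymes that prepare the sugar donor and the linker moved in different directions. Ugdh (ENSMUSG00000029201) oxidizes UDP-glucose to UDP-glucuronate, the donor of glucuronate for chondroitin, heparan and hyaluronan chains. It stood at 325, 339, 332 and 334 CPM in the Control libraries, at 966, 969.8, 979 and 1052 CPM in WT, and at 1041, 1021, 1017 and 998 CPM in SIRT5F101L. Every plasmid library lay far above every Control library, with little spread inside the groups. The rise was 2.98-fold in WT (log2 1.58 ± 0.05 SE, edgeR adjusted p = 1.7e-15) and 3.06-fold in SIRT5F101L (log2 1.61 ± 0.05, adjusted p = 1.1e-15).

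Xylt1 (ENSMUSG00000030657) encodes a xylosyltransferase that places the xylose on which each chain begins. Its Control libraries stood at 141, 114, 133 and 146 CPM, its WT libraries at 404, 369, 406 and 355 CPM, and its SIRT5F101L libraries at 312, 432, 451 and 479.8 CPM. No plasmid library overlapped Control, and SIRT5F101L replicate 1 was the lowest of the 8 plasmid libraries. Xylt1 rose 2.88-fold in WT (log2 1.52 ± 0.11 SE, edgeR adjusted p = 1.4e-10) and 3.14-fold in SIRT5F101L (log2 1.65 ± 0.11, adjusted p = 3.9e-11). Its paralog Xylt2 did not pass the test in either group, with log2 fold changes of 0.17 and 0.11. In WT it was called without Control replicate 1 (log2 0.22, edgeR adjusted p = 0.031) and in the fit of only the 8 libraries (0.18, adjusted p = 0.024).

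Among the 4 linker enzymes that follow, B4galt7, which adds the galactose next to xylose, rose by log2 0.42 in WT and 0.40 in SIRT5F101L. B3gat3, which closes the linker with glucuronate, fell by 0.44 and by 0.56. The B3galt6 galactosyltransferase passed in neither group, at 13.9 ± 1.34 CPM in Control, 14.3 ± 0.66 CPM in WT and 13.6 ± 3.69 CPM in SIRT5F101L. Fam20b, the kinase that phosphorylates the xylose, rose by log2 0.15 in SIRT5F101L (edgeR adjusted p = 0.043), and had a log2 fold change of 0.04 in WT (adjusted p = 0.639). The SIRT5F101L call of Fam20b was lost without Control replicate 2, 3 or 4 (log2 0.10, 0.16 and 0.13) and without SIRT5F101L replicate 2, 3 or 4 (log2 0.15, 0.14 and 0.14). It was also lost with upper-quartile scaling (0.10) or with no filter (0.14), and its sign turned with a transcript-length offset (-0.03).

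Among the 6 genes that start and lengthen chondroitin chains, 2 pairs of paralogs split. Chsy3 rose and Chsy1 fell, although both encode chondroitin synthases. Chsy3 went from 14.97 ± 1.65 CPM in Control to 25.4 ± 3.48 CPM in WT and 25.7 ± 2.80 CPM in SIRT5F101L (SD, n = 4), log2 fold changes of 0.77 and 0.78. Chsy1 went from 15.4 ± 1.73 CPM to 9.51 ± 0.21 and 9.77 ± 1.08 CPM, a fall by 0.70 and by 0.66 on the log2 scale. Csgalnact1 and Csgalnact2 add the galactosamine that commits a linker to chondroitin. Csgalnact1 fell by 0.66 in WT and by 0.43 in SIRT5F101L, while Csgalnact2 rose by 0.31 and 0.40. For these 4 genes no plasmid library overlapped the Control range, beside 53.5% of all genes without overlap in WT and 51.3% in SIRT5F101L. The highest edgeR adjusted p of the 4 genes was 0.0013.

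Chpf and Chpf2, the polymerizing partners of the synthases, showed small differences. Chpf fell by 0.18 on the log2 scale in WT (edgeR adjusted p = 0.048) and fell by 0.24 in SIRT5F101L (adjusted p = 0.0085), with libraries that overlapped Control in both. Its WT call was lost without Control replicate 1, 3 or 4 (log2 -0.15, -0.16 and -0.16), without any 1 of the 4 WT libraries (log2 -0.19 to -0.16), with RLE scaling (adjusted p = 0.052) and in DESeq2 (adjusted p = 0.064). Chpf2 had a log2 fold change of -0.06 in WT and fell by 0.20 in SIRT5F101L (adjusted p = 0.032). That call was lost without Control replicate 1 or 3 (log2 -0.13 and -0.19), without SIRT5F101L replicate 2 or 3 (log2 -0.16 and -0.19), in the fit of only the 8 libraries (-0.18) and in DESeq2 (-0.19). Of the longest Chpf2 transcript, 40.3% had a near-identical match in 1 other annotated gene, and 44.1% of the Chpf2 exon length overlapped other genes. The search did not separate overlapping genes from copies elsewhere. The Chpf2 counts are therefore uncertain.

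Among the 5 genes that sulfate or epimerize chondroitin, Chst11 and Chst3 rose in both plasmid groups. Chst11 (ENSMUSG00000034612) encodes a chondroitin 4-O-sulfotransferase. Its Control libraries stood at 50.4, 47.9, 42.1 and 47.6 CPM, the WT libraries at 150.5, 143, 139.5 and 136 CPM, and the SIRT5F101L libraries at 124, 149, 154 and 155 CPM. The lowest plasmid library was well above the highest Control library. Chst11 rose 3.03-fold in WT (log2 1.60 ± 0.08 SE, edgeR adjusted p = 3.4e-13) and 3.10-fold in SIRT5F101L (log2 1.63 ± 0.08, adjusted p = 2.3e-13).

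Chst3 (ENSMUSG00000057337), the chondroitin 6-O-sulfotransferase, had the lowest level per kb of exon of the 33 genes, with 51 to 57 counts in a Control library. Its Control libraries stood at 3.08, 2.89, 2.93 and 2.79 CPM, its WT libraries at 6.22, 7.12, 7.86 and 7.97 CPM, and its SIRT5F101L libraries at 4.49, 5.07, 6.86 and 7.82 CPM. The plasmid groups did not overlap Control, and the SIRT5F101L libraries were the more spread. Chst3 rose 2.49-fold in WT (log2 1.32 ± 0.18 SE, edgeR adjusted p = 2.2e-06) and 2.08-fold in SIRT5F101L (log2 1.06 ± 0.18, adjusted p = 3.5e-05), or by log2 0.92 to 1.18 in SIRT5F101L when 1 library was left out.

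The other chondroitin-modifying genes were lower or passed no test. Chst12, another 4-O-sulfotransferase gene, passed in neither group, with log2 fold changes of -0.04 and -0.08. Dse, the epimerase that turns chondroitin into dermatan, fell by 0.39 in WT and by 0.33 in SIRT5F101L, with all 8 plasmid libraries below the 4 Control libraries. Ust, which sulfates the uronic acid, fell by 0.30 in WT (edgeR adjusted p = 0.020) and had a log2 fold change of -0.18 in SIRT5F101L (adjusted p = 0.133). The WT call of Ust was lost without Control replicate 1 or 2 (log2 -0.27 and -0.25) or WT replicate 2 (-0.26). Chst2, a glucosamine 6-O-sulfotransferase gene of keratan-type chains, rose by log2 0.68 and 0.61, from 32.3 ± 1.93 CPM in Control to 51.9 ± 3.17 and 49.4 ± 3.03 CPM.

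Of the 9 genes of heparan sulfate assembly, 6 rose and 2 fell in each plasmid group, against backgrounds of 28.7% higher and 28.1% lower of all genes in WT and 30% and 30.7% in SIRT5F101L. Of the 4 chain-building genes, Extl3, which starts the heparan chain on the linker, rose by log2 0.69 in WT and 0.70 in SIRT5F101L. Ext1, a subunit of the heparan polymerase, rose by log2 0.41 and 0.55. Its partner Ext2 passed in neither group, at 274 ± 18.8 CPM in Control, 283 ± 10.2 CPM in WT and 275 ± 12.7 CPM in SIRT5F101L. Extl2 fell by 0.33 and by 0.30. All 5 modifying genes were called in both groups, 4 higher and 1 lower, with no library overlapping Control. Of all genes, 53.5% were without overlap in WT and 51.3% in SIRT5F101L.

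Ndst2 and Ndst1 replace acetyl groups of glucosamine with sulfate and so open the chain to further modification. Ndst2 rose by log2 0.88 in WT and 0.82 in SIRT5F101L, from 37.0 ± 4.29 CPM to 68.0 ± 3.16 and 65.3 ± 3.41 CPM. Ndst1 rose by 0.49 and 0.52. The 6-O-sulfotransferase gene Hs6st1 rose by 0.82 and 0.75. Of its longest transcript 10.5% had a near-identical match in 1 other gene, and 8.07% of its exon length overlapped other genes. The 2-O-sulfotransferase gene Hs2st1 rose by 0.41 and 0.44, and with a transcript-length offset its SIRT5F101L value was 0.28 and still called. Glce, the epimerase that makes iduronate, fell by 0.56 and by 0.49. The highest edgeR adjusted p of these 5 genes was 8.1e-05.

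Sulf1 (ENSMUSG00000016918) encodes a secreted sulfatase that removes 6-O-sulfate from finished heparan chains. Its Control libraries stood at 352, 292, 354 and 369 CPM, its WT libraries at 838, 768, 790.5 and 828 CPM, and its SIRT5F101L libraries at 813, 862, 867 and 828 CPM. All 8 plasmid libraries lay above all Control libraries. Sulf1 rose 2.36-fold in WT (log2 1.24 ± 0.07 SE, edgeR adjusted p = 3.6e-12) and 2.47-fold in SIRT5F101L (log2 1.30 ± 0.07, adjusted p = 1.5e-12). Its paralog Sulf2 passed in neither group, at 217 ± 8.92 CPM in Control, 223.5 ± 9.74 CPM in WT and 219.9 ± 12.8 CPM in SIRT5F101L. The plot of the 5 genes by library shows these values.

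**Figure D2:**
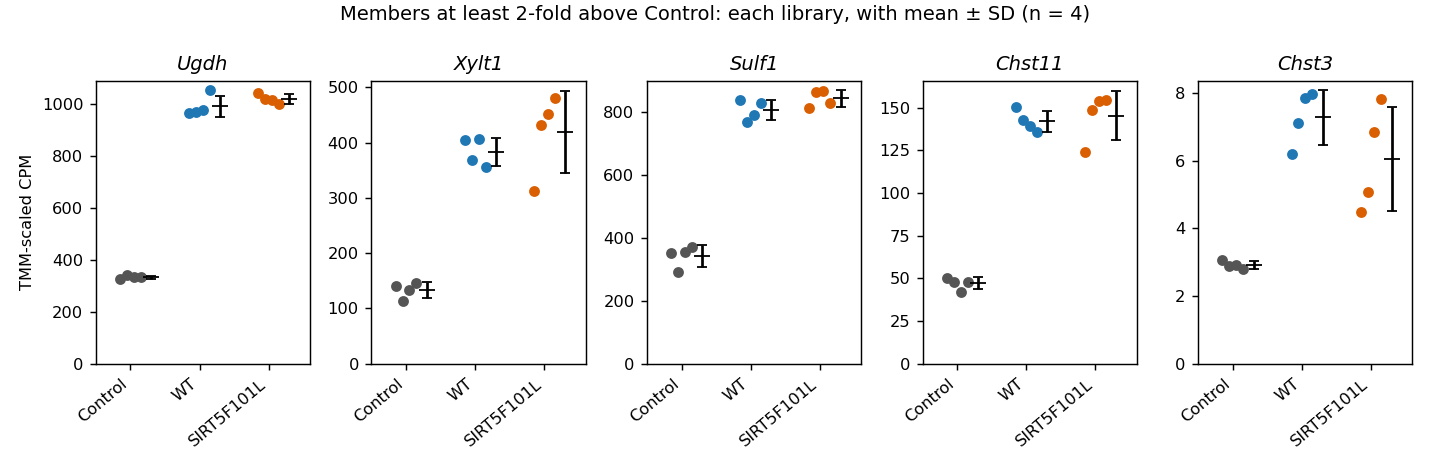
TMM-scaled CPM (vertical axis, from 0) of Ugdh, Xylt1, Sulf1, Chst11 and Chst3 in each library (points), with the mean and SD of 4 libraries (bars). In each panel the 8 plasmid libraries lie above the 4 Control libraries, and in SIRT5F101L the Xylt1 point at 312 CPM lies below the other 3.

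The promoters of Ugdh, Chst11 and Chst3 are shown because these genes rose in both plasmid groups by the largest folds of the set, with Xylt1 and Sulf1. Each is the RefSeq window from 250 bases before to 50 bases after the start, in build GRCm38.p6, written 5′ to 3′ on the gene's strand. They are chr5:65435793-65436092 (minus strand) for Ugdh, chr10:82985247-82985546 (plus strand) for Chst11 and chr10:60219211-60219510 (minus strand) for Chst3. Capitals mark the GC box, GGGCGG or its reverse complement.
Ugdh promoter: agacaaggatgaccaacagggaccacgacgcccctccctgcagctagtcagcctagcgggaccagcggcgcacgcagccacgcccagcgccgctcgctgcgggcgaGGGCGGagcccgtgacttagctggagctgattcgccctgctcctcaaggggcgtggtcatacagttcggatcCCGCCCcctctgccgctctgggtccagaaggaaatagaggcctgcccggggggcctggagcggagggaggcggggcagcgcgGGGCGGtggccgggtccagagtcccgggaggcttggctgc
Chst11 promoter: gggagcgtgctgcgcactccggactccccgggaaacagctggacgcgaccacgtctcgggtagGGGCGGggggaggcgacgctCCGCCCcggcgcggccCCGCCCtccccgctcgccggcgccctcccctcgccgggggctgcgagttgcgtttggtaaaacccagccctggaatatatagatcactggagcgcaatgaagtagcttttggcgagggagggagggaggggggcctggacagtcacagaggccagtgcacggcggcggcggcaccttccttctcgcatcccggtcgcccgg
Chst3 promoter: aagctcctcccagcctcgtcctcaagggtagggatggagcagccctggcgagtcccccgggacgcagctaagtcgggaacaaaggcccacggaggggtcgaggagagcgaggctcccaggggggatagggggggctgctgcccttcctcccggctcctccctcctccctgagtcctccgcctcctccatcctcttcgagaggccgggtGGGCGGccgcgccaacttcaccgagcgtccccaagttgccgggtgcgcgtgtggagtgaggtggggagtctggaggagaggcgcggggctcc
The Ugdh and Chst11 windows held 3 GC boxes each and the Chst3 window held 1. Searched on both strands, none of the 3 held the AP-1 motif TGANTCA or the kappa B motif. A GC box was present in 35.7% of 32851 promoters of the same length, AP-1 in 7.81% and kappa B in 4.51%. Of the 33 genes, 25 had an entry, with 31 promoters in all, and 64.5% of these held a GC box, 3.23% the AP-1 motif and 9.68% the kappa B motif. A match describes these letters and does not show binding.

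Scaled by exon length, the order of the 33 genes also shifted. The length is that of all annotated exons of a gene, 11294 bases for Sulf1, whose longest transcript has 5598. Ranks between genes, and the shares of paralog pairs per kb below, depend on this choice of length. A gene's fold change between groups does not. In Control, Chpf was highest at 69.9 ± 6.52 CPM per kb, followed by Dse at 49.97 ± 1.74, Ugdh at 49.3 ± 0.86 and Chst12 at 48.4 ± 2.32 CPM per kb. The last 3 of these differed by no more than their spread. In both plasmid groups Ugdh ranked highest, at 147 ± 6.04 CPM per kb in WT and 151 ± 2.603 in SIRT5F101L, and Sulf1 followed at 71.4 ± 2.87 and 74.6 ± 2.33. Xylt1 moved from rank 18 at 13.8 ± 1.45 CPM per kb to rank 5 at 39.7 ± 2.62 and 43.4 ± 7.64. Chst3 was lowest in all 3 groups, at 0.45 ± 0.02, 1.12 ± 0.12 and 0.93 ± 0.24 CPM per kb.

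**Figure D3:**
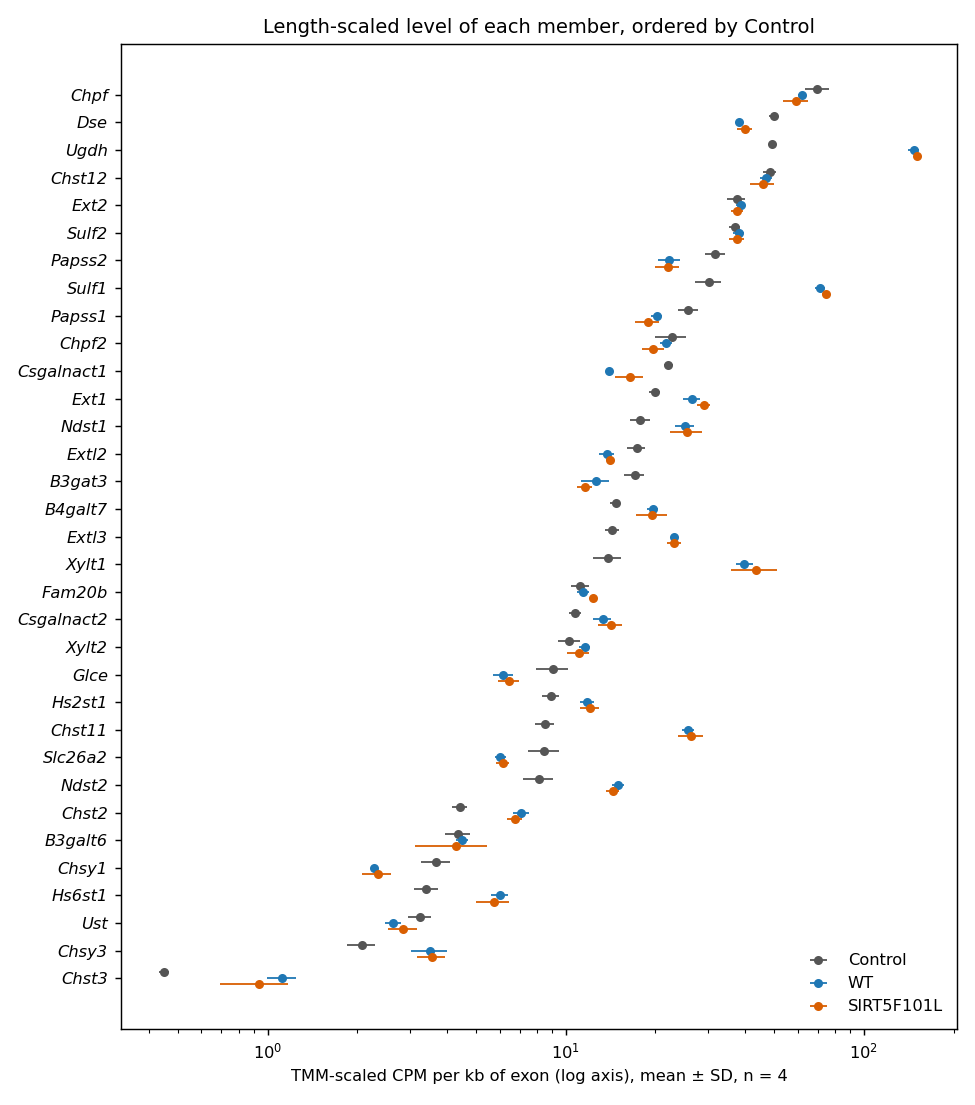
Level of each of the 33 genes in CPM per kb of exon (horizontal log axis), as mean and SD of 4 libraries for Control, WT and SIRT5F101L, ordered by the Control level. Ugdh, Sulf1, Xylt1, Chst11 and Chst3 stand apart to the right of their Control points, and Chst3 is lowest in each group.

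Paralogs that catalyze the same or a like step were compared by the log2 ratio of their counts within a library, which needs no scaling between libraries. Over 10 pairs, the lowest exact two-sided permutation p against Control was 0.0286, the smallest that 70 arrangements of 8 libraries allow. Adjusted over 30 tests it was 0.0536, so no pair passed the threshold.

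Chst12 to Chst11, the 4-O-sulfotransferases, differed most, with a log2 ratio of 1.28 ± 0.10 in Control, -0.36 ± 0.10 in WT and -0.43 ± 0.26 in SIRT5F101L (SD, n = 4). Per kb of exon, Chst11 made up 14.9 ± 0.89% of the pair in Control, 35.4 ± 1.65% in WT and 36.6 ± 4.19% in SIRT5F101L. Chsy3 made up 36 ± 3.31%, 60.5 ± 3.33% and 60.2 ± 4.21% of the chondroitin synthase pair. Xylt1 went from 57.3 ± 1.51% of the xylosyltransferases to 77.4 ± 1.25% and 79.3 ± 4.65%.

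Sulf1 went from 44.9 ± 1.98% to 65.2 ± 1.5% and 66.6 ± 1.06% of the sulfatase pair, and Extl3 from 45.3 ± 1.32% to 62.8 ± 1.72% and 62.2 ± 1.82% of its pair with Extl2. Csgalnact2 went from 32.7 ± 1.56% to 48.7 ± 2.07% and 46.3 ± 1.51%. Smaller differences were seen for Ext1, from 34.8 ± 2.1% to 40.7 ± 1.94% and 43.6 ± 2.02%, and for Ndst2, from 31.3 ± 1.41% to 37.4 ± 2.83% and 36.1 ± 2.05%. The Papss2 to Papss1 and Chpf2 to Chpf ratios overlapped Control in both groups.

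**Figure D4:**
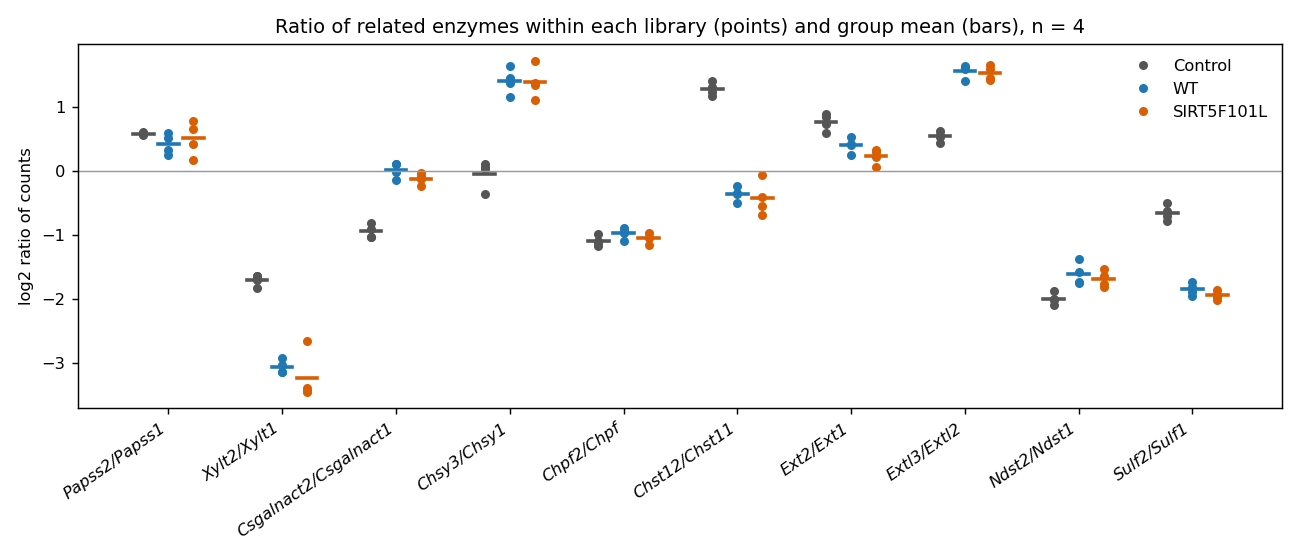
Log2 ratio of the counts of 2 related enzymes (vertical axis) within each library for 10 pairs, with points for libraries and bars for the means of 4 libraries per group. Chst12/Chst11 shows the largest difference between Control and plasmid means, and the points overlap for Papss2/Papss1 and Chpf2/Chpf.

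Between the libraries labelled WT and SIRT5F101L, none of the 33 genes was called. Sirt5 counts were raised in neither, so this comparison is of the labelled groups and not of a measured difference in SIRT5. By edgeR's quasi-likelihood test 0.0421% of all genes were called (6 of 14253), and DESeq2 also called none of the 33. At an unadjusted p under 0.05 there were 2 of the 33 genes, beside 11.9% of all genes, and no gene's groups were free of overlap, beside 4.02% of all genes. One of the 2 was Csgalnact1, at 69.6, 69.9, 73.4 and 71.7 CPM in WT and at 70.5, 86.9, 91.0 and 86.3 CPM in SIRT5F101L (log2 0.23 ± 0.07 SE, edgeR adjusted p = 0.32). SIRT5F101L replicate 1 lay inside the WT range and the other 3 above it. The other was Ext1 (log2 0.13 ± 0.06, edgeR adjusted p = 0.409).

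The 95% intervals of the 33 differences ran from -0.60, the lower bound of Chst3, to 0.38, the upper bound of Csgalnact1, on the log2 scale. A difference between the plasmids of more than 1.51-fold was thus outside the interval of each gene, and 31 of the 33 intervals covered 0. For Ugdh the interval was -0.07 to 0.15, for Sulf1 -0.07 to 0.20, for Chst11 -0.12 to 0.18 and for Xylt1 -0.09 to 0.34. One library bore on this comparison: without SIRT5F101L replicate 1, Csgalnact1 (log2 0.31 ± 0.06, edgeR adjusted p = 4.0e-04) and Xylt1 (log2 0.25 ± 0.07, adjusted p = 0.013) were called higher in SIRT5F101L, while 15.2% of all genes were then called.

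Genes around the pathway were read from lists of related genes, against the same backgrounds: in WT 28.7% of all genes rose and 28.1% fell, and in SIRT5F101L 30% rose and 30.7% fell. Of 17 genes of precursor supply and transport, 15 were tested, and 8 rose and 2 fell in each plasmid group. Uap1, which makes UDP-N-acetylglucosamine, went from 72.3 ± 2.92 CPM in Control to 495 ± 28.6 CPM in WT and 504 ± 18.2 CPM in SIRT5F101L (log2 2.77 and 2.80, edgeR adjusted p = 2.8e-18 and 2.3e-18). Ugp2, which makes the UDP-glucose that Ugdh uses, fell by 0.51 and by 0.42. Of 17 further sulfotransferases and chain enzymes 10 were tested, and 3 rose and 3 fell in each group. The heparan 3-O-sulfotransferase gene Hs3st1 held 1, 1, 11 and 2 counts in the Control libraries, 144 to 274 in WT and 131 to 249 in SIRT5F101L. It was higher in both (edgeR adjusted p = 1.4e-11 and 2.3e-11), with a fold that so few Control counts leave uncertain. Extl1 fell by 3.08 and by 3.76, from 9.05 ± 1.84 CPM in Control to 1.06 ± 0.21 and 0.65 ± 0.19 CPM.

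Of 15 tested enzymes of glycosaminoglycan breakdown, 2 rose and 7 fell in each group. Hpse, the heparanase that cleaves heparan chains, rose by log2 0.34 in both (edgeR adjusted p = 0.011 and 0.0091). Hexa, a lysosomal hexosaminidase subunit, fell by 1.37 and by 1.46, from 465 ± 22.8 CPM to 180.5 ± 5.61 and 169 ± 12.3 CPM. Of 15 tested core proteins, 11 rose and 3 fell in WT, where 56.8% of all genes were called, and 10 rose and 3 fell in SIRT5F101L, where 60.7% were. Vcan, encoding the chondroitin sulfate proteoglycan versican, stood at 49.8 to 56.4 CPM in Control, 590.2 to 675 CPM in WT and 614 to 804 CPM in SIRT5F101L (log2 3.58 and 3.82, edgeR adjusted p = 5.8e-18 and 2.4e-18). Sdc2, encoding a syndecan that carries heparan sulfate, fell by 1.39 and by 1.35. As for the 33 genes, edgeR called 0 of the tested genes in these 4 lists between the plasmid groups. Slc26a1, Gnpnat1, Chst15, Hyal1 and Gpc2 were listed at 0 in all 12 libraries, as were the X-linked IDs. Such a 0 need not mean that a gene was not expressed.

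Markers of cell types also moved in these contrasts, in which 28.7% of all genes rose and 28.1% fell in WT, and 30% rose and 30.7% fell in SIRT5F101L. Of 9 chondrocyte markers, 7 fell and 2 rose in WT, and 7 fell and 1 rose in SIRT5F101L, with summed levels of 9036 to 11340 CPM in Control, 2813 to 2927 in WT and 2293 to 2538 in SIRT5F101L. Col2a1 fell by 2.01 and by 2.36 on the log2 scale. Fibroblast markers summed to 29640 to 35560 CPM in Control, 9659 to 11070 in WT and 9312 to 10700 in SIRT5F101L, and 4 of 5 fell while 1 rose. Of 6 tested macrophage and leukocyte markers 5 fell and 1 rose in each group, with sums of 165 to 198, 128 to 148 and 138 to 176 CPM. Itgam was listed at 0, which need not mean that it was not expressed. Of 5 osteoblast markers 3 were tested, and these fell. All 5 summed to 16.0 to 23.9 CPM in Control, 1.39 to 2.95 in WT and 1.19 to 2.53 CPM in SIRT5F101L. The 1 tested adipocyte marker, Fabp4, rose, and 4 endothelial markers, at 2.6 to 4.53 CPM in sum, passed no test. The part of these shifts in the results for the 33 genes was not tested. In such bulk libraries fewer cells of a type and less RNA per cell cannot be told apart.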

How the data were processed

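The deposited files hold raw counts per Ensembl mouse gene ID, whole numbers with no header, 1 file for each of 12 libraries. Per the labels' protocols, mRNA was captured by poly(A) selection and sequenced as paired-end reads. The submitters' processing notes name FastQC 0.11.9, HISAT2 2.2.1, HTSeq 2.0.2, DESeq2 1.38.3 and the builds GRCm39 and mm39. Their settings, the strand setting and the annotation release are not given in the sources used here, so reads of overlapping genes cannot be assigned by strand.

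From the deposited counts, edgeR (4.0.16, R 4.3.3) was run with TMM scaling, its default expression filter, and 1 quasi-likelihood model over the 12 libraries with 9 residual degrees of freedom. Tests were two-sided, and a gene was called at a p under 0.05 after Benjamini-Hochberg adjustment over 14253 genes. The SE of a log2 fold change is its size over the root of F. Printed CPM values are TMM-scaled, apart from the worth of 1 count, which uses the library totals alone. The biological coefficient of variation was 9.18%. The libraries carried no molecular identifiers, so the worth of 1 count covers counting error only. Paralog ratios used a pseudocount of 0.5 and exact permutation tests.

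GENCODE M21, on another build (GRCm38), gave exon lengths, exon overlaps, chromosomes and transcripts. Among these transcripts BLAST 2.17.0 found near-identical stretches, without separating overlapping genes from copies elsewhere. The RefSeq promoters are also of build GRCm38. The 33 genes, their roles and the related lists were chosen with earlier results of these data known. By rule, each library's values are given for genes called with at least a 2-fold change, other genes by role, and each related list by its counts and its highest and lowest called gene in WT against Control. Alternatives were scaling by RLE or by the upper quartile, testing without a filter or with a mean of at least 1 CPM, DESeq2 (1.42.0), a fit of only the 8 libraries compared, a length trend as offset, a pseudocount of 5 for ratios, and leaving out each library. The edgeR fit was also run on simulated counts, with the same dispersion for all genes and few genes changed, equally up and down. This does not test the fit where most genes differ, as here against Control.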

Additional observations from a re-analysis of the deposited data

Results flagged for a closer look

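In each group of 4 libraries, a library was singled out when its gap to the nearest other library took up more of the group's range than Dixon's 95% critical value for 4 values. Among 129 groups of values, 10 were singled out, where chance alone gives about 1 in 20, or 6.45. Of the 10, 2 were in SIRT5F101L replicate 1: B3galt6 at 19.1 CPM, with the others at 11.2 to 12.2 CPM, and the Xylt2 to Xylt1 log2 ratio at -2.66, with the others at -3.45 to -3.39. Control replicate 2 was low for Chpf at 232 CPM (others 279 to 285 CPM), for Ext2 at 246 CPM (others 280.1 to 286 CPM) and for the Chsy3 to Chsy1 log2 ratio at -0.35 (others 0.03 to 0.11).

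The remaining 5 were high values in WT libraries. Papss1 was at 65.3 CPM in replicate 2 (others 60.2 to 60.8 CPM) and Ext1 at 235 CPM in replicate 1 (others 206 to 208 CPM). Ext2 was at 298 CPM in replicate 3 (others 277 to 279.6 CPM). In replicate 4, Ugdh was at 1052 CPM (others 966 to 979 CPM) and Extl2 at 51.2 CPM (others 45.7 to 46.3 CPM).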

How the results depend on the processing

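Under the alternatives, 24 to 27 of the 33 genes were called in WT and 25 to 27 in SIRT5F101L against Control, beside 32.5% (no filter) to 61.3% and 34.6% (no filter) to 64.6% of all genes tested. Ugdh, Xylt1, Sulf1, Chst11 and Chst3 were called in each of the 15 settings. Between the plasmid groups, 0 genes were called except without SIRT5F101L replicate 1, where 2 were, both higher (range 0 to 2 over the libraries left out). Log2 fold changes whose sign turned were, but for Fam20b in SIRT5F101L, those of genes that passed no test, and the cause was not tested. In WT, upper-quartile scaling gave -0.002 for B3galt6, -0.0143 for Fam20b, -0.00365 for Ext2 and -0.00631 for Sulf2, and the length offset gave 0.0231 for Chst12, -0.0684 for Fam20b, -0.0412 for Ext2 and -0.0266 for Sulf2. Leaving out 1 library gave -0.126 to 0.0139 for Chpf2, -0.0171 to 0.0858 for B3galt6, -0.00638 to 0.0700 for Fam20b and -0.00376 to 0.0661 for Ext2. In SIRT5F101L, upper-quartile scaling gave -0.0418 for Ext2 and -0.0248 for Sulf2. No filter gave -0.000446 for Ext2, and the 8-library fit gave 0.000978 for B3galt6. The length offset gave 0.0294 for Chst12, 0.0363 for B3galt6, -0.0252 for Fam20b, -0.133 for Ext2 and -0.0763 for Sulf2. Leaving out 1 library gave -0.224 to 0.0577 for B3galt6, -0.0482 to 0.0338 for Ext2 and -0.0201 to 0.0455 for Sulf2, and -0.165 to 0.0369 for the Papss2 to Papss1 ratio. Between the plasmids the sign turned in 35 of 495 values, over 14 genes; the length offset gave -9.27e-05 for Ugdh and -0.0258 for Sulf1. With 3 against 4 libraries the smallest exact p of a ratio is 0.0571. No paired analysis was possible because the labels give the groups no shared replicate numbers. Low counts limit the values of Chst3, Sirt5, Hs3st1 and Extl1.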
